A study of Mus musculus with 6 samples.

Results

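The genes described here are the replication-dependent histone genes of the mouse cochlea, the inner ear's organ of hearing. They were taken as the rows of the raw count table whose gene symbol begins with Hist1h, Hist2h, Hist3h or Hist4h, which gave 68 of the 48709 mouse gene rows. By protein type there were 6 H1, 20 H2A, 17 H2B, 12 H3 and 13 H4 genes. By symbol, 54 belong to the Hist1 cluster on chromosome 13, 10 to Hist2 on chromosome 3 and 3 to Hist3 on chromosome 11. Hist4h4 lies alone on chromosome 6. Hist1h2al starts at base 51202727 of chromosome 13, apart from the other Hist1 genes, which lie between 21715763 and 23934851. Hist1h2aj, Hist1h2al and Hist3h2bb-ps are annotated as pseudogenes and are counted with their types. GENCODE release M21 gives such symbols to 70 genes, and the remaining pair, Hist1h2bm and Hist1h2bh, was not analysed here. A total of 55 members passed the filter on low counts and were tested.

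RNA-seq compared cochleae of 3 mice homozygous for an engineered Hgf allele (del10Neo/del10Neo, called knock-in here) with 3 wild-type littermates (Hgf+/+). The allele lacks 10 bp of intron 5 of Hgf, the gene for hepatocyte growth factor, carries a Neo cassette, and models the recessive human deafness DFNB39. All mice were between 5 and 27 weeks old, and the labels give no age, sex or litter for a single mouse. Ribosomal RNA was removed and the remaining total RNA was primed at random, so that RNAs without a poly(A) tail enter these libraries.

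Histones package DNA: 4 core types, H2A, H2B, H3 and H4, form the nucleosome around which DNA winds, and the linker histone H1 binds where DNA enters and leaves it. The replication-dependent genes supply these proteins while DNA is copied, lie in clusters, and mostly lack introns. Their messengers are known for ending in a short stem-loop instead of a poly(A) tail; the stem-loop is bound by the protein SLBP, and cutting after it is guided by the U7 small nuclear RNA. Other histone genes, called replication-independent, are expressed outside S phase and carry poly(A) tails. The sensory hair cells and supporting cells of the mature mammalian cochlea do not divide.

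The stem-loop was searched on the sense strand of every GENCODE M21 transcript as a run of 16 bases allowing the pyrimidine and purine variants of its stem and any base but G at 1 loop position. It was found in 42 of the 68 members and in 51 of 55450 genes, which is 0.0920% of all genes with transcripts. Of those genes, 7 were not replication-dependent histone genes. Only annotated sequence was searched, and some members without a match have short annotated transcripts, such as Hist1h4k (312 bases) and Hist1h2bl (381 bases). A stem-loop past such an end would be missed, so no match does not mean no stem-loop. The member stem-loops had 6 forms, which are shown with the bases around them because the histone types differed in the form they carried. Capitals mark the stem-loop.
Hist1h2bg: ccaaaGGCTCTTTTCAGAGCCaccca
Hist1h3f: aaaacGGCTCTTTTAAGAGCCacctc
Hist2h2ac: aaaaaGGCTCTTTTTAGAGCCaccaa
Hist1h4d: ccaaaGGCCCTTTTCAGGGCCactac
Hist2h4: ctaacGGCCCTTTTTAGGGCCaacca
Hist1h4b: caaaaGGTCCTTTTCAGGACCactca

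The form of Hist1h2bg was the most frequent, in 24 members of types H1, H2A, H2B and H3. The form of Hist1h3f was found in 6 members of types H1, H2B and H3, and that of Hist2h2ac in this H2A gene alone. All 11 H4 genes with a stem-loop had 1 of the 3 remaining forms, that of Hist1h4d in 7, that of Hist2h4 in 2 and that of Hist1h4b in 2, and no member of another type had these. The polyadenylation signal AATAAA lay in the last 60 bases of an annotated transcript of 15 members, against 37.0% of all genes. A signal past a short annotated end would likewise be missed. Many annotated ends reach past the stem-loop, as in Hist1h4d, whose transcript continues for 770 bases after it, while that of Hist1h4m ends 3 bases after it.

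Promoters (250 bases before to 50 after the start, RefSeq, GRCm38.p6) were matched for 57 members. CCAAT, searched on both strands, stood in 48 of them (84.2%) against 37.4% of all 32851 promoters in the same table. All matched H1, H2A, H2B and H3 promoters held it, and 3 of 12 H4 promoters did. TATAAA stood in 33 member promoters (57.9%) against 13.6% of all, and the octamer ATTTGCAT in 11 (19.3%) against 1.74%, these being 6 of 15 H2A and 5 of 14 H2B promoters. All 3 motifs were sought on both strands and at any position, so a TATAAA match need not lie near the start. The stretch before Hist1h2bg, which it shares with the H2A gene Hist1h2ae on the other strand, held all 3 motifs, and that of the H4 gene Hist1h4m held TATAAA but not CCAAT. Both are printed on the forward strand, with matches of either strand in capitals.
Hist1h2bg, chr13:23571150-23571449: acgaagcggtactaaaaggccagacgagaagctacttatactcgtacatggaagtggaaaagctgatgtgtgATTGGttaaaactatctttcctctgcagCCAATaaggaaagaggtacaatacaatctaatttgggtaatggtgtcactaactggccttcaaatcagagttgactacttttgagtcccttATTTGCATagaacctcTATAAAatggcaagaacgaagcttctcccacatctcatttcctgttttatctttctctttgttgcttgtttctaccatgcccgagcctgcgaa
Hist1h4m, chr13:21811496-21811795: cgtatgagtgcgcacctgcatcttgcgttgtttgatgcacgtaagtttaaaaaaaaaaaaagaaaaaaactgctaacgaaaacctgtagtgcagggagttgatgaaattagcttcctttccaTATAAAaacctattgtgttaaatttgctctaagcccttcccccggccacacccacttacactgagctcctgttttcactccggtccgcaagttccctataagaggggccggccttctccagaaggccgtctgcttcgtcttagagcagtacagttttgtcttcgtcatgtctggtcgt

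The libraries held 24144106, 29041493 and 42312291 gene counts in the wild-type group and 34437746, 28451570 and 24005234 in the knock-in group, in replicate order. Hgf, the gene carrying the deletion, had 15.4, 16.2 and 15.2 CPM (counts scaled to a common library total by TMM) in wild-type mice, against 9.23, 10.4 and 10.5 in knock-in mice, so all knock-in values were lower (log2 fold change -0.63, SE 0.11; adjusted p = 0.246). The Neo cassette had 5, 8 and 10 reads in the wild-type libraries, 71 and 199 in knock-in replicates 1 and 2, and 5 in the library labelled knock-in replicate 3. That library is therefore at the wild-type level for the cassette, although its Hgf level is that of its group, and without it the log2 fold change of Hgf was -0.67. Values without this library are given below for the types of histone gene, the gene lists and the single genes with the largest differences. All 24 spike-in and transgene rows, Neo included, summed to 0.00404% of the gene counts in this library and 0.00450% in knock-in replicate 2. In the other libraries they summed to between 0.00151% and 0.00173%. Xist, which coats the silenced X, was high in wild-type replicate 2 and in the library labelled knock-in replicate 3, and under 1 CPM elsewhere. Ddx3y, a gene of the Y chromosome, was at 0.034 and 1.13 CPM in these libraries and from 76.7 to 88.8 CPM elsewhere. By both genes, sex differed within each group. All 18 markers of cochlear cells were detected in these libraries, among them Coch, Otof and Tectb.

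The histone genes together took 0.876%, 0.607% and 0.873% of the counts of the wild-type libraries and 0.673%, 0.769% and 0.650% of the knock-in libraries. The 95% Wilson interval of the lowest share, in wild-type replicate 2, was 0.605% to 0.610%, and intervals cover counting error only. Summed over the 68 members, the level was 8495, 5928 and 8819 CPM in wild-type mice, against 6990.0, 7454 and 6761 CPM in knock-in mice. The lowest and both highest sums were wild-type, and the 3 knock-in sums lay between them. The sums of wild-type replicate 2 and of the library labelled knock-in replicate 3, the libraries with high Xist, were the lowest. The part of sex in this order was not tested, and values with Xist as a covariate are given below. Member by member, 39 of the 55 tested genes were lowest in wild-type replicate 2 and 49 were highest in wild-type replicate 1 or 3. The group values were 7748 ± 1584 CPM for wild-type and 7068 ± 354 CPM for knock-in (SD, n = 3), a log2 ratio of -0.13, and the difference between the means is smaller than the SD of the wild-type libraries. Without the library labelled knock-in replicate 3 the log2 ratio was -0.10, without wild-type replicate 2 it was -0.29, and without wild-type replicate 3 it was -0.03. In whole tissue, fewer cells of a kind and less RNA per cell cannot be told apart.

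**Figure D1:**
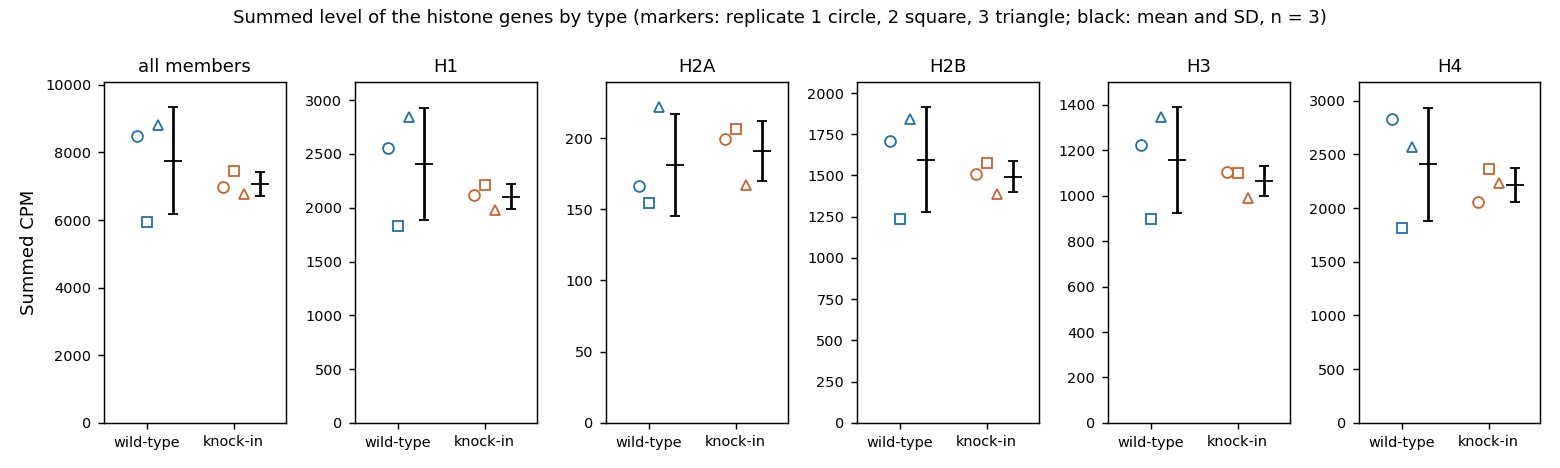
Summed CPM of all 68 histone genes and of each protein type (vertical axes, each starting at 0) in the wild-type and knock-in libraries. Circles, squares and triangles are replicates 1, 2 and 3, and black marks give the mean and SD of 3 libraries. Wild-type replicate 2 lies lowest in every panel, and in every panel but H2A the other wild-type libraries lie highest, with the knock-in libraries between.

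No member passed the adjusted threshold of 0.05 in the edgeR quasi-likelihood test over 20733 genes, in which 0.0338% of genes passed. At an unadjusted p under 0.05 there were 2 members, Hist2h2ab with the higher and Hist2h4 with the lower knock-in level, against 4.5% of all genes (2.54% higher and 1.96% lower). Knock-in and wild-type values did not overlap for 1 of the 55 tested members, Hist2h2ab, against 8.72% of all genes (4.7% with knock-in above and 4.02% with knock-in below). In this fit both counts are a smaller share of the members than of all genes. The log2 fold change was negative for 40 of the tested members and positive for 15, with a median of -0.10, where 49.8% of all genes were negative and their median was 0.00. Without the library labelled knock-in replicate 3, 36 members were negative and the median was -0.05. Single wild-type libraries moved these counts further: without wild-type replicate 3, 26 members were negative and the median was 0.01. Without wild-type replicate 2, 51 were negative, the median was -0.24, and 22 members had an unadjusted p under 0.05, against 5.87% of all genes, with none called. DESeq2 likewise called 0 members, with 4 at an unadjusted p under 0.05 against 3.61% of all genes, which is a larger share of the members. In limma-voom 0 were called and 2 had such a p, against 4.23% of all genes. The authors' deposited table lists 57 members, of which 41 had a negative fold change. None had an adjusted p under 0.05 in the authors' deposited table, against 0.181% of all features with such a value, and the lowest was 0.823, for Hist2h4. At an unadjusted p under 0.05 the authors' deposited table has 2 members with the higher and 4 with the lower knock-in level, against 3.27% of its features.

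**Figure D2:**
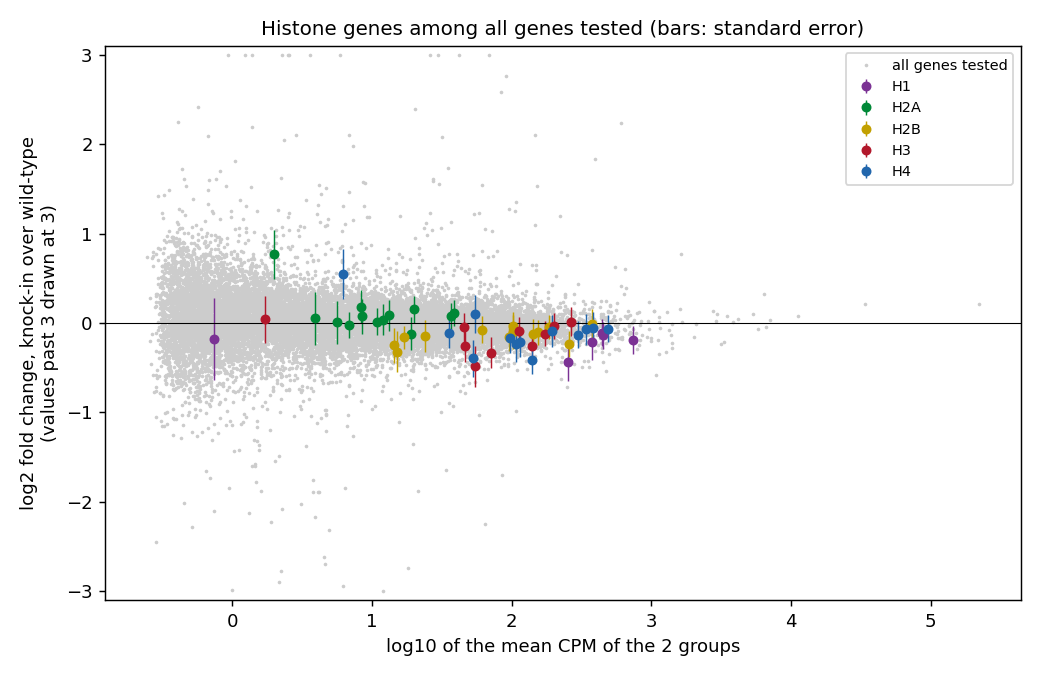
Log2 fold change of knock-in over wild-type (vertical axis) against log10 of the mean CPM (horizontal axis) for all 20733 genes tested (grey) and the 55 tested histone genes, coloured by protein type with standard errors as bars. The histone genes lie between -0.48 and 0.77, within the spread of other genes of like level, and H2A genes lie around or above 0.

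The linker histone genes had a median level of 287 CPM per kb of exon, the highest median of the 5 types. Hist1h1c had the highest level of any member, with 838, 626 and 899 CPM in wild-type mice, against 683, 750 and 637 CPM in knock-in mice (log2 fold change -0.19, SE 0.15). Wild-type replicate 2 was lowest and the other wild-type libraries highest, so the groups overlapped. The same order of extremes was found for Hist1h1e, with 502, 367 and 537 CPM against 434, 448 and 399 CPM. Hist1h1d had 479, 356 and 532 CPM against 412, 457 and 399 CPM, and Hist1h1a had 445, 269 and 497 CPM against 325, 363 and 354 CPM. Their log2 fold changes were -0.14 (SE 0.15), -0.11 (SE 0.15) and -0.22 (SE 0.20).

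Hist1h1b departed from that order. Its level was 294, 208 and 373 CPM in wild-type mice, against 265, 189 and 193 CPM in knock-in mice, so knock-in replicates 2 and 3 were below every wild-type library while replicate 1 was within their range (log2 fold change -0.44, SE 0.21; adjusted p = 0.966). Hist1h1t, the testis linker histone, had only 0.883, 0.336 and 1.12 CPM against 0.663, 1.02 and 0.390 CPM. All 6 H1 genes had a negative log2 fold change, with a median of -0.18 and none at an unadjusted p under 0.05. Without the library labelled knock-in replicate 3 the median was -0.11, with 5 negative, and the log2 fold change of Hist1h1b was -0.36. Without wild-type replicate 3 the H1 median was -0.035, with 4 negative. Without wild-type replicate 2 it was -0.39, with 4 of 6 at an unadjusted p under 0.05, against 5.87% of all genes.

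H2A genes had the lowest levels per length of the core types. The median over tested members was 17.2 CPM per kb, against 134 for H2B, 190.4 for H3 and 149 for H4. Together the H2A genes took 1.96%, 2.61% and 2.51% of the histone counts in wild-type mice, against 2.85%, 2.77% and 2.47% in knock-in mice. Near-identical sequence is most frequent in the same type: over all members, the median share of stretches of 93 bases, the read length, that occurred in no other gene was 29.6% for H2A, against 99.5% for H1, 56.9% for H2B, 47.4% for H3 and 79.9% for H4. How the authors' count treated reads that fit several genes is not given in the sources used here, and its part in the levels was not tested. Exon length is the union of annotated exons, so members with long annotated forms have lower values per kb.

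Among H2A genes, Hist1h2ab was highest, with 37.7, 31.1 and 43.5 CPM in wild-type mice, against 44.2, 43.3 and 33.7 CPM in knock-in mice (log2 fold change 0.11, SE 0.15). Hist1h2ak had 32.6, 31.1 and 43.4 CPM against 40.5, 39.7 and 33.2 CPM (0.08, SE 0.15), and Hist2h2ac had 18.1, 15.8 and 22.7 CPM against 21.2, 23.6 and 18.0 CPM (0.15, SE 0.16). In each of these 3 genes wild-type replicate 2 was lowest and the groups overlapped. Hist1h2ae had 17.3, 17.0 and 24.7 CPM against 20.95, 19.0 and 14.4 CPM (-0.12, SE 0.18). Hist1h2ag had 7.79, 6.18 and 9.47 CPM against 9.41, 9.85 and 7.40 CPM (0.18, SE 0.18). Hist3h2a, the H2A gene of the Hist3 cluster, had 6.26, 6.39 and 8.11 CPM against 6.81, 7.02 and 6.67 CPM (-0.02, SE 0.15).

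Hist2h2ab, an H2A gene on the forward strand of chromosome 3 (GRCm38, 96219865 to 96220308), was the member with the lowest p. Of the read-length stretches of this gene, only 39.5% are its own, and 60.2% also occur in the gene model Gm15444. The part of this shared sequence in the difference was not tested. Hist2h2ab had few reads, with 31, 44 and 68 counts in wild-type mice, against 54, 94 and 62 in knock-in mice. Its level was 1.24, 1.48 and 1.62 CPM in wild-type mice, against 1.63, 3.20 and 2.68 CPM in knock-in mice. Every knock-in value was above every wild-type value, but knock-in replicate 1 by only the last digit, and the log2 fold change was 0.77 (SE 0.27; adjusted p = 0.966). Without the library labelled knock-in replicate 3 it was 0.72. Without knock-in replicate 1, its adjusted p was 0.279, the lowest of any member in any of 14 alternatives. In all, 11 of 13 tested H2A genes had a positive log2 fold change (median 0.08). Leaving out wild-type replicate 1 gave 7 of 13, leaving out wild-type replicate 2 gave 3, and leaving out the library labelled knock-in replicate 3 gave 12.

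Of the H2B genes, Hist1h2bb was highest, with 395, 289 and 444 CPM in wild-type mice, against 353, 419 and 349.9 CPM in knock-in mice (log2 fold change -0.01, SE 0.16). Hist1h2bn had 284, 224 and 320 CPM against 261, 226 and 216 CPM (-0.24, SE 0.15). Its lowest library was the one labelled knock-in replicate 3, next to wild-type replicate 2. Hist1h2be had 197, 155 and 212 CPM against 174, 201 and 173 CPM (-0.04, SE 0.13), and Hist1h2bc had 179, 127 and 176 CPM against 151, 157 and 141 CPM (-0.10, SE 0.14). The Hist3 genes of this type were Hist3h2ba, at 28.4, 17.6 and 30.0 CPM against 24.1, 22.5 and 22.0 CPM, and the pseudogene Hist3h2bb-ps, at 15.4, 11.3 and 23.4 CPM against 13.1, 14.1 and 13.0 CPM. The log2 fold changes of these last genes were -0.15 (SE 0.18) and -0.32 (SE 0.22). Wild-type replicate 2 was the lowest library for 12 of the 13 tested H2B genes. All 13 had a negative log2 fold change (median -0.12), and 12 were negative without the library labelled knock-in replicate 3. Leaving out wild-type replicate 3 gave 6 negative values with a median of 0.0051, and leaving out wild-type replicate 1 gave 9. All 13 were negative without wild-type replicate 2 (median -0.28), 7 of them at an unadjusted p under 0.05, against 5.87% of all genes.

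H2A and H2B genes often lie as divergent pairs, head to head around 1 stretch of promoter. There were 13 such pairs, with starts between 173 and 306 bases apart, and 10 had both genes tested. Per kb, the H2B gene had the higher level in 9 of these 10, the exception being Hist2h2ac and Hist2h2be at 38.3 and 6.44 CPM per kb. Hist1h2bg, whose promoter is printed above, had 151, 116 and 178 CPM in wild-type mice, against 149.9, 142 and 118 CPM in knock-in mice, or 231 CPM per kb, and its partner Hist1h2ae 26.8 CPM per kb. The log2 fold change of the H2A gene was above that of its H2B partner in 10 of 10 pairs, by as little as -0.12 against -0.12 for this pair, and in 8 to 10 pairs under the alternatives. The pairs share libraries and in part sequence, so they are not independent, and the pairing was examined after values had been seen.

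**Figure D3:**
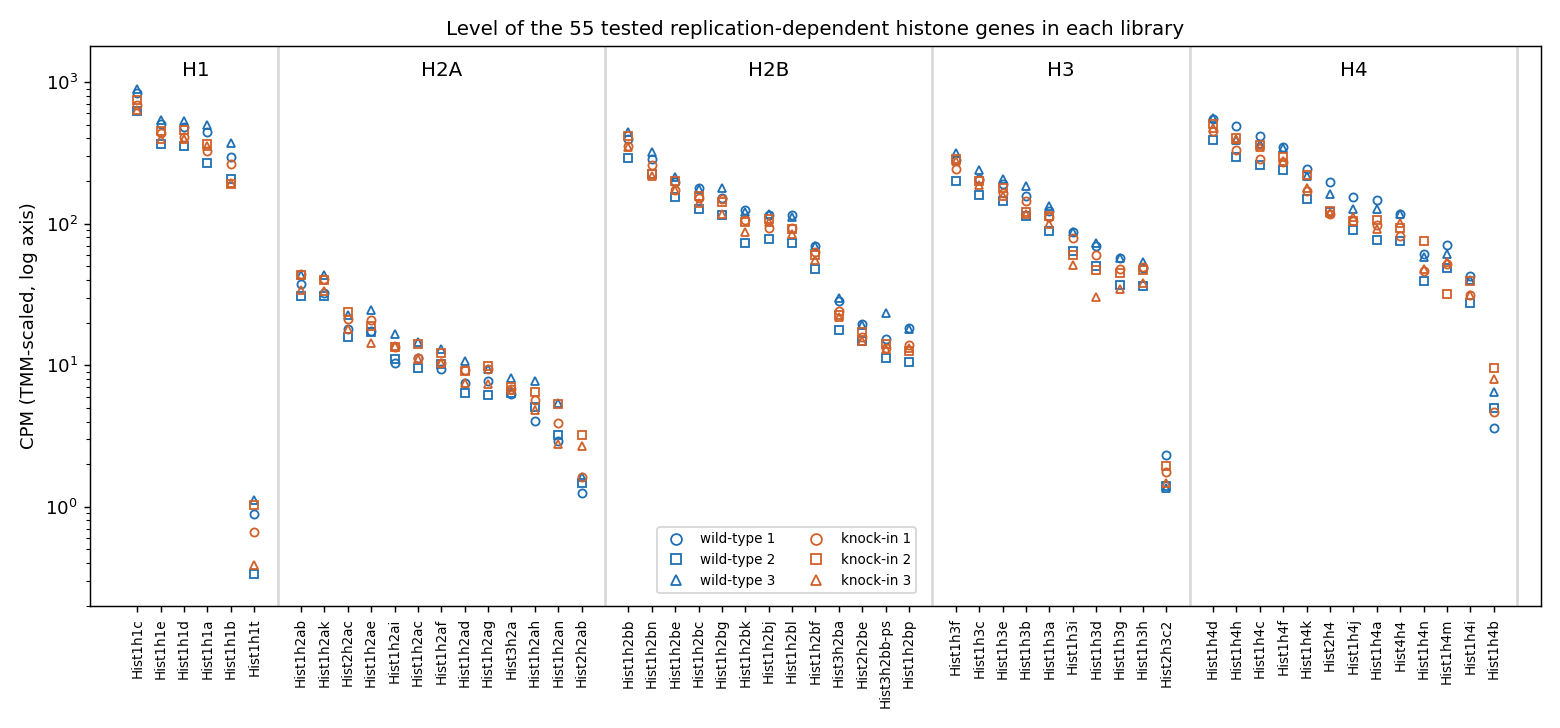
CPM on a log axis (vertical) of the 55 tested histone genes (horizontal, ordered by level within each protein type) in 3 wild-type (blue) and 3 knock-in (orange) libraries. Most genes show the blue square, wild-type replicate 2, at the bottom and a blue circle or triangle at the top, and H2A genes lie below most genes of the other core types.

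Among H3 genes, Hist1h3f had 282, 201 and 314 CPM in wild-type mice, against 243, 286 and 275 CPM in knock-in mice (log2 fold change 0.01, SE 0.16). Hist1h3c had 207, 159 and 239 CPM against 205, 199 and 187 CPM (-0.03, SE 0.14), and Hist1h3e had 190.0, 144 and 206 CPM against 164, 178 and 155 CPM (-0.12, SE 0.14). The groups overlapped in these genes, with wild-type replicate 2 lowest. Hist1h3b had 158, 114 and 183 CPM against 144, 121 and 116 CPM (-0.25, SE 0.17). The largest difference of an H3 gene was that of Hist1h3d, at 69.1, 50.4 and 72.8 CPM against 59.7, 47.4 and 30.3 CPM (-0.48, SE 0.23; adjusted p = 0.966). Knock-in replicate 2 and the library labelled knock-in replicate 3 were below every wild-type library, and knock-in replicate 1 lay within the wild-type range. Hist1h3i had 87.6, 63.9 and 87.7 CPM against 78.7, 60.2 and 51.3 CPM (-0.33, SE 0.17), with the same pair of libraries below the wild-type range. Without the library labelled knock-in replicate 3 the log2 fold change was -0.26 for Hist1h3d and -0.20 for Hist1h3i. Of the 10 tested H3 genes 8 had a negative log2 fold change, median -0.10, and 7 without the library labelled knock-in replicate 3. The number was 6 without wild-type replicate 3 (median -0.056). Without wild-type replicate 2 it was 10 (median -0.25), with 4 at an unadjusted p under 0.05, against 5.87% of all genes.

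H4 had the highest member per kb, Hist1h4h with 819 CPM per kb. Hist1h4d had 550, 391 and 556 CPM in wild-type mice, against 454, 507 and 474 CPM in knock-in mice (log2 fold change -0.06, SE 0.15). Hist1h4h had 492, 294 and 392 CPM against 334, 403 and 394 CPM (-0.06, SE 0.18). Wild-type replicate 2 was lowest and another wild-type library highest in both. Hist1h4c had 413, 259 and 366 CPM against 286, 357 and 346 CPM (-0.07, SE 0.17), and Hist1h4f had 345, 238 and 345 CPM against 274, 296 and 278 CPM (-0.13, SE 0.15). Hist4h4, the only gene of its cluster, had 116, 75.6 and 117 CPM against 81.1, 92.7 and 101 CPM (-0.17, SE 0.17).

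Hist2h4 (chromosome 3, 96261682 to 96263311, reverse strand) was the member with the lowest p in the negative direction. Its level was 196, 121 and 162 CPM in wild-type mice, against 118, 123 and 119 CPM in knock-in mice. The knock-in values were close together, and wild-type replicate 2 lay among them, so the groups overlapped. The log2 fold change was -0.42 (SE 0.16; adjusted p = 0.966), and -0.41 without the library labelled knock-in replicate 3. All of its 93-base stretches are its own, and its stem-loop is the form shown for it above.

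Hist1h4b, a low member with the third H4 stem-loop form, had 3.57, 5.01 and 6.42 CPM in wild-type mice, against 4.70, 9.51 and 7.92 CPM in knock-in mice (log2 fold change 0.55, SE 0.28; adjusted p = 0.966). Knock-in replicates 2 and 3 were above every wild-type library and replicate 1 was below the middle one. Over the 13 H4 genes 11 log2 fold changes were negative, with a median of -0.11, and 11 were negative without the library labelled knock-in replicate 3, where Hist1h4b was at 0.49. Without wild-type replicate 1 only 6 of 13 were negative and the median was 0.0078. Without wild-type replicate 2 the number was 12, with a median of -0.28. In that fit 6 had an unadjusted p under 0.05, against 5.87% of all genes.

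The division of the histone counts among members was followed across libraries. The share of the summed histone counts taken by a tested member varied over the 6 libraries by a median range of 0.37 on the log2 scale, from 0.071 for Hist1h4f to 1.58 for Hist1h4b. The range was over 0.5 for 22 of 55 members and for 18 of the 51 with at least 1000 counts. The median range was 0.59 for the 19 members with under 50% of their 93-base stretches their own and 0.31 for the other 36. Depth differs between these sets too, since the median level was 82.3 and 133 CPM per kb.

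**Figure D4:**
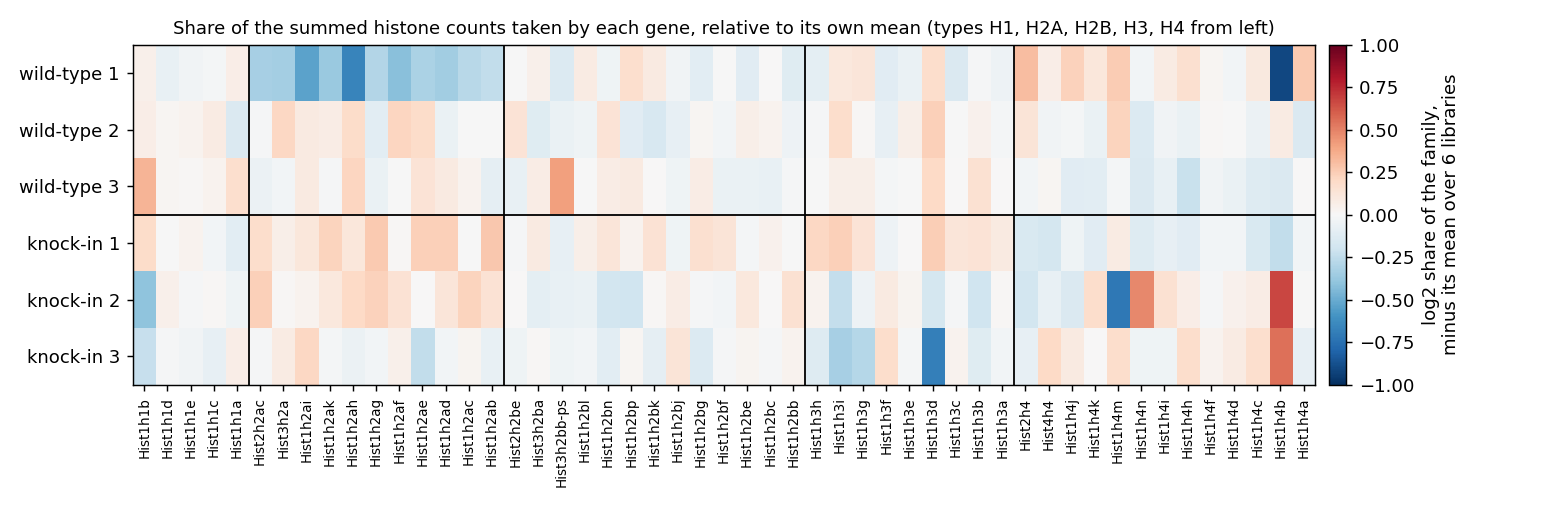
Share of the summed histone counts taken by each of the 51 tested members with at least 1000 counts (columns, by type and chromosome position) in each library (rows), as log2 minus the gene's own mean over 6 libraries (colour, red higher and blue lower, the scale ending at -1 and 1). Among the darkest cells are Hist1h4b, low in wild-type replicate 1 and high in knock-in replicates 2 and 3, Hist1h4m low and Hist1h4n high in knock-in replicate 2, and Hist1h3d low in knock-in replicate 3, and the H2A genes are blue in wild-type replicate 1.

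Hist1h4m and Hist1h4n, chosen after their values were seen, are a near-identical pair. Hist1h4m lies on the forward strand of chromosome 13 (21811746 to 21812147) and Hist1h4n on the reverse strand (21831767 to 21832196), and 274 of their 93-base stretches are the same, 88.4% of those of Hist1h4m and 81.1% of those of Hist1h4n. Their transcripts carry the same stem-loop and differ in where the annotated end lies; both are shown because reads over it fit either gene.
Hist1h4m: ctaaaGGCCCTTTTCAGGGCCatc
Hist1h4n: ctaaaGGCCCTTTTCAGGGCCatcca

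Hist1h4m had 70.9, 48.2 and 60.7 CPM in wild-type mice, against 51.6, 31.6 and 53.4 CPM in knock-in mice (log2 fold change -0.40, SE 0.20; adjusted p = 0.966), and Hist1h4n had 60.8, 39.3 and 58.2 CPM against 46.5, 75.7 and 47.8 CPM (0.10, SE 0.21). Hist1h4m took 53.8%, 55.1% and 51.0% of the counts of the pair in wild-type mice, against 52.6%, 29.5% and 52.8% in knock-in mice. The share in knock-in replicate 2 (95% Wilson interval 27.9% to 31.1%) was apart from the other 5. The sum of both genes was 132, 87.6 and 119 CPM against 98.1, 107 and 101 CPM, in which knock-in replicate 2 did not stand apart.

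A total of 13 members were below the filter. Of these, 6 had 0 counts in all 6 libraries: Hist1h2aa, a testis H2A gene, and Hist2h2aa1, Hist2h2aa2, Hist2h2bb, Hist2h3b and Hist2h3c1 of the Hist2 cluster. The other 7 had at most 8 counts in any library, and the testis gene Hist1h2ba had 1 count in each of 2 knock-in libraries and 0 elsewhere. For the 5 Hist2 genes a count of 0 says little about expression, because 0% of their 93-base stretches were their own. Every stretch of each was also part of an overlapping gene model, namely Gm20633, Gm20632, Gm20634 or Gm20628, and Gm20628, which holds all stretches of Hist2h2bb and Hist2h3b, had 65, 50 and 110 counts in wild-type mice, against 81, 67 and 54 in knock-in mice. For Hist1h2aa, 87.6% of stretches were its own, and a count of 0 allows up to 3 counts per library.

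Genes that act with the histone genes were compared next, and none of them was called. Of 22 genes for transcription and 3′ processing of histone messengers (the Npat, Slbp and Lsm10 to Lsm11 group), 9 had a positive and 13 a negative log2 fold change, median -0.03. Npat, the coactivator at histone clusters, had 40.6, 40.5 and 46.4 CPM in wild-type mice, against 43.4, 43.5 and 39.9 CPM in knock-in mice, and the groups overlapped. The 18 histone chaperones had 4 positive and 14 negative values (median -0.11). Of these, Nasp, which carries H3 and H4, was at 37.5, 31.8 and 50.9 CPM against 33.7, 29.8 and 26.1 CPM (-0.42, SE 0.17), and Anp32e, which removes the variant H2A.Z, at 50.2, 42.4 and 56.6 CPM against 48.1, 33.6 and 26.5 CPM (-0.46, SE 0.20). Both had an unadjusted p under 0.05, as had 1.96% of all genes in this direction, and the groups overlapped. Their log2 fold changes were -0.34 and -0.29 without the library labelled knock-in replicate 3, and 13 of 18 chaperones were negative (median -0.08).

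The 11 replication-independent histone genes had log2 fold changes with a median of -0.09, of which 2 were positive and 9 negative. Their summed level was 921, 761 and 999 CPM in wild-type mice, against 798, 769 and 782 CPM in knock-in mice. As for the replication-dependent genes, wild-type replicate 2 was lowest and wild-type replicates 1 and 3 were highest. H3f3b, which encodes the replacement histone H3.3, had 256, 227 and 297 CPM in wild-type mice, against 222, 159 and 195 CPM in knock-in mice. All knock-in values were lower, and the log2 fold change was -0.44 (SE 0.15; adjusted p = 0.966). H1fx, a linker histone variant, had 0.361, 0.370 and 0.453 CPM against 0.482, 0.477 and 0.779 CPM, all knock-in values higher (0.50, SE 0.33; adjusted p = 0.966). H3f3b was at -0.45 and H1fx at 0.26 without the library labelled knock-in replicate 3.

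The order of the libraries for the histone sum was compared with that for lists of dividing and blood-forming cells. Summed over 20 DNA replication genes (the Mcm2 to Mcm7, Pcna and Rrm2 group), levels were 1397, 1026 and 1529 CPM in wild-type mice, against 1240.5, 1171 and 1068 CPM in knock-in mice. Wild-type replicate 2 was lowest and wild-type replicates 1 and 3 highest there too, and 19 of 20 had a negative log2 fold change (median -0.20). For 16 genes of G2 and mitosis the sums were 2088, 1531 and 2354 CPM against 2169, 1985 and 1632 CPM (median -0.11, 12 negative). These medians were -0.12, with 19 negative, and -0.03, with 10 negative, without the library labelled knock-in replicate 3. With the mean of the DNA replication list as a covariate, the member median was 0.09 and 12 of 55 were negative.

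Markers of blood-forming cells were present in every library. All 12 erythroid markers with a row were detected, with summed levels from 8929 to 13574 CPM in the wild-type group and from 9509.9 to 12801 CPM in the knock-in group. The 9 neutrophil precursor markers summed to between 3394 and 4759 CPM and to between 3659.9 and 3853 CPM, and the 12 B cell precursor markers to between 257 and 506 CPM and to between 232 and 429 CPM. No defining marker of these lists was at 0. Wild-type replicate 2 was lowest for the erythroid and neutrophil lists and next to lowest for the B cell list. Over their genes the median log2 fold changes were -0.16, -0.14 and -0.24 in that order, and -0.15, -0.16 and 0.0029 without the library labelled knock-in replicate 3. The part of these cells in the histone levels was not tested.

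Markers of cartilage and of fat cells had larger median differences between the groups than these lists. The 9 cartilage markers summed to 125, 217 and 131 CPM in wild-type mice, against 191, 496 and 386 CPM in knock-in mice. Their groups overlapped, with knock-in replicate 1 below wild-type replicate 2, and 9 of 9 log2 fold changes were positive (median 1.14), 7 at an unadjusted p under 0.05. The 7 adipocyte markers summed to 101, 187 and 204 CPM against 442, 191 and 956 CPM, with knock-in replicate 2 within the wild-type range. All 7 had a positive log2 fold change at an unadjusted p under 0.05, with a median of 1.61. Of all genes, 2.54% had such a p with the higher knock-in level. No gene of either list was called. The medians without the library labelled knock-in replicate 3 were 1.02, with 8 of 9 positive, and 0.97, with 7 of 7 positive. The 7 osteoblast markers had a median of 0.10, and -0.07 without that library. The part of these tissues in the histone levels was not tested.

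**Figure D5:**
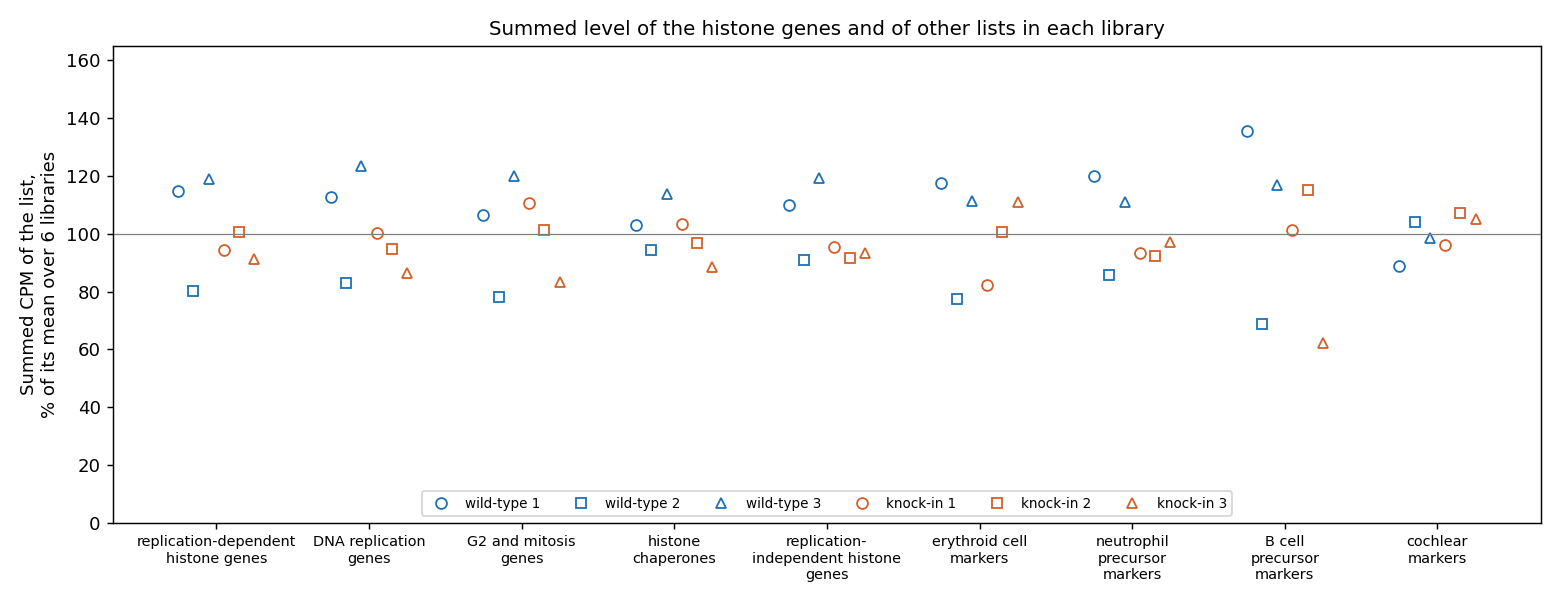
Summed CPM of each gene list as a percentage of its mean over the 6 libraries (vertical axis) for wild-type (blue) and knock-in (orange) libraries. In both histone gene lists, DNA replication genes, and erythroid and neutrophil markers, wild-type replicate 2 is lowest and wild-type replicates 1 and 3 highest. The cochlear markers have wild-type replicate 1 lowest.

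RNAs of other kinds that lack a poly(A) tail were read in the same libraries. Of 7 such RNAs 6 were tested, 5 had a positive log2 fold change and the median was 0.72. Their summed level was 17058 ± 1625 CPM in wild-type mice and 17718 ± 1461 CPM in knock-in mice (SD, n = 3 each). That is a log2 ratio of 0.05 and a difference smaller than either SD. The sum mostly reflects the most abundant of these RNAs and says little about the others. Rmrp, the RNA of an RNA-cleaving enzyme, had 76.0, 182 and 144 CPM in wild-type mice, against 154, 384 and 388 CPM in knock-in mice (1.20, SE 0.37). The Y RNAs Rny1 and Rny3 had log2 fold changes of 1.27 (SE 0.45) and 1.25 (SE 0.37). In all 3 the highest wild-type library was above knock-in replicate 1, so the groups overlapped, and each had an adjusted p of 0.966. Rmrp was at 1.002 and the Y RNAs at 0.64 and 0.76 without the library labelled knock-in replicate 3, and the median of the 6 genes was 0.48.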

How the data were processed

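Per the labels, with the version from the submitters' processing notes, the authors mapped reads to GRCm38 (GENCODE M11) by STAR 2.5.2 and compared groups by DESeq2. Neither the counting program nor its strand setting is given in the sources used here; overlapping and antisense genes may be mixed. Raw whole-number read counts per gene and library were deposited. They also deposited their DESeq2 comparison, with a mean signal per gene (counts over size factors), log2 fold changes and their errors, a test score, and p-values. Their table of transformed values went unused.

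Spike-in and transgene rows (24) entered neither library sizes nor tests. Symbols, coordinates and transcripts came from GENCODE M21 by gene identifier (48349 of 48709 matched). The test was that of edgeR 4.0.16 under R 4.3.3 (filterByExpr, TMM, two-sided quasi-likelihood F test, group as the only term), with Benjamini-Hochberg adjustment over 20733 genes and a threshold of 0.05. SE is the log2 fold change over the square root of F. CPM use TMM-scaled totals, and group values are mean ± SD. The labels give 3 mice per group and a number in each library title, whose meaning they do not state. The number of wild-type replicate 2 begins with the same digit as those of all knock-in libraries, unlike those of the other wild-type libraries. Whether this has a part in the levels was not tested. Replicate numbers follow accession order and pair no mice. Counts were also simulated for the same genes, of which 20430 passed the filter. The test recovered 48 of 50 genes at 2-fold and 38 of 50 at 0.5-fold. It called 14 of the 20533 genes simulated without change, those below the filter included. The changed genes had a mean of at least 50 counts, and each gene was simulated independently. These rates do not cover smaller differences, such as those of the histone genes, or genes that move together by library.

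Members, lists and tests were chosen with earlier results of these data known. Named were Hgf, the 4 tested members of each type with the highest level, the 5 with the smallest p in each direction, and the Hist3, Hist4 and testis-type members; others are named as chosen after their values were seen. Alternatives were RLE and upper-quartile scaling, no filter, a filter of 1 CPM in 3 libraries, DESeq2 1.42.0, limma-voom 3.58.1, covariates for the DNA replication list or Xist, a threshold of 0.1, leaving out each library, and summing without the highest member.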

Additional observations from a re-analysis of the deposited data

Results flagged for a closer look

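Reads of the Neo cassette, a sequence outside the gene comparison, were above the level of all wild-type libraries in 2 knock-in libraries. The cassette reached 2.062 CPM in the first of these (knock-in replicate 1) and 6.994 CPM in the other (knock-in replicate 2), against at most 0.275 CPM in a wild-type library and 0.208 CPM in the library labelled knock-in replicate 3.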

How the results depend on the processing

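No histone gene was called by edgeR, DESeq2 or limma-voom, at a threshold of 0.1, or with any library left out. The number of histone genes at an unadjusted p under 0.05 was 22 without wild-type replicate 2, against 5.87% of all genes. Of these 22 histone genes, 21 were lower in the knock-in group. The lowest adjusted p of a member there was 0.659, the median log2 fold change was -0.24, and 51 of 55 values were negative. In the main analysis the number was 2 (4.5% of all genes), without a filter 7 (4.86%) and with DESeq2 4 (3.61%). With Xist as a covariate it was 6 (5 of them lower), against 6.14% of all genes, and the median was -0.06. Without knock-in replicate 1 it was 5, against 9.04% of all genes. The other alternatives gave 0 to 3, against 3.22% to 4.55% of all genes. Without wild-type replicate 3 the median was 0.01 and 26 were negative. The log2 ratio of the histone sums ranged from -0.29 to -0.03 over the libraries left out. The count of all genes called, 7 in the main analysis, was 76 without a filter, 25 with DESeq2, 11 with Xist as a covariate, and 3 to 21 with 1 library left out (3 without wild-type replicate 2 or knock-in replicate 3, 4 without wild-type replicate 1, 21 without knock-in replicate 1). The cause was not tested.

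Of the 55 tested members, 15 kept the sign of their log2 fold change in every alternative. With the DNA replication list as a covariate, 28 of the 40 negative members turned positive, of which 18 are named with a fold change in the text: Hist1h1a 0.060, Hist1h1d 0.065, Hist1h1e 0.037, Hist1h1t 0.50, Hist1h2ae 0.031, Hist3h2a 0.049, Hist1h2bb 0.18, Hist1h2be 0.091, Hist1h2bg 0.076, Hist1h2bc 0.054, Hist3h2ba 0.10, Hist1h3c 0.14, Hist1h3e 0.037, Hist1h4d 0.094, Hist1h4h 0.10, Hist1h4c 0.096, Hist1h4f 0.039 and Hist4h4 0.015. Hist1h2bb was also at 0.0070 with upper-quartile scaling, 0.013 with limma-voom and 0.021 with Xist as a covariate, and Hist1h3f at -3.5e-05 without a filter. With 1 library left out, values crossed 0 for 30 of 55 members, of which 16 are so named: Hist1h1d (-0.26 to 0.016), Hist1h1t (-0.55 to 0.23), Hist1h2ab (-0.0063 to 0.23), Hist1h2ae (-0.23 to 0.078), Hist1h2ak (-0.0081 to 0.25), Hist1h2bb (-0.17 to 0.12), Hist1h2be (-0.16 to 0.050), Hist1h2bg (-0.27 to 0.030), Hist1h3c (-0.18 to 0.10), Hist1h3f (-0.15 to 0.15), Hist1h4c (-0.24 to 0.078), Hist1h4d (-0.21 to 0.020), Hist1h4h (-0.23 to 0.14), Hist1h4n (-0.16 to 0.23), Hist3h2a (-0.089 to 0.11) and Hist3h2bb-ps (-0.53 to 0.011). No paired analysis was possible because the labels give no replicate numbers shared between the groups.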
